A study of Mus musculus with 6 samples.

Results

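The mitochondrial ribosomal protein genes of aged mouse muscle are described here: every protein-coding gene of the count table whose symbol starts with Mrpl or Mrps followed by a digit, which gave 78 of the 55416 genes listed, 49 named Mrpl and 29 named Mrps. RNA was sequenced from the tibialis anterior muscle (TA muscle) of 6 mice, 3 WT and 3 with a SELENOW knockout (KO). According to the labels the mice of both genotypes aged naturally to 24 months, on a free diet, and the methods give a C57BL/6N background. In the KO mice exon 4 of Selenow, a selenoprotein gene, was deleted by CRISPR in the whole body. The comparison addresses what changes in aged muscle when SELENOW is missing. The labels do not say whether the mice were littermates, and the methods give aged mice as male.

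The mitochondrial ribosome translates the 13 proteins encoded by mitochondrial DNA, all of them subunits of the respiratory chain or ATP synthase. Its rRNAs come from the mitochondrial genome, whereas every one of its proteins is encoded in the nucleus, made in the cytosol and imported. It descends from the bacterial ribosome and has since gained proteins with no bacterial counterpart, so its proteins fall into an inherited and a mitochondria-specific class, and into a large subunit, which forms peptide bonds, and a small subunit, which decodes mRNA. Muscle depends heavily on this system, and inherited defects of several of these proteins cause combined respiratory chain deficiency in humans. Of the 78 genes, 51 encode large-subunit and 26 small-subunit proteins; Mrps30 and Mrps18a, despite their names, belong to the large subunit, and Mrps36 encodes a component of the 2-oxoglutarate dehydrogenase complex rather than a ribosomal protein. By ancestry, 45 have a bacterial counterpart and 32 do not.

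The libraries held 25351976 to 29111213 counts. Selenow itself reached 268, 245 and 219 TMM-scaled CPM (counts scaled to the library total and corrected for composition) in WT and 193, 212 and 210 in KO, and the groups did not overlap. Its counts cover the whole gene and do not measure the loss of exon 4 (log2 fold change -0.25, standard error [SE] 0.14, edgeR's quasi-likelihood test, adjusted p = 0.604). The markers of fast muscle fibers, which make up TA muscle, summed to a CPM of 72424 to 93469 in WT and 80927 to 95155 in KO, against 33.5 to 87.7 and 30.3 to 41.1 for those of slow fibers. Transcripts of mitochondrial DNA took 37.3%, 29.1% and 29.9% of the counts in WT and 35.4% to 40.4% in KO.

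The genes were all expressed. Each of the 78 passed the filter on low counts, with 63 to 2648 counts per library, and together they held a CPM of 1812, 1420 and 1321 in WT and of 1411, 1300 and 1471 in KO, in the order of the replicates, which holds for all values by library. WT replicate 1 stood above the other 5 libraries, whose ranges overlapped between the genotypes. In a bulk sample, fewer cells of a type and less RNA per cell cannot be told apart.

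Levels of different genes were compared as TMM-scaled CPM per kb of gene model. The highest mean level over the 6 libraries was 39.0 for Mrps21, a small-subunit platform protein, followed by Mrpl12 at 28.0, a protein of the stalk that recruits translation factors, Mrpl18 at 27.4, a protein of the central protuberance, Mrpl42 at 23.0 and Mrpl2 at 21.1, a protein of the peptidyl transferase core. In WT, Mrps21 had 42.0 ± 7.62 CPM per kb, Mrpl12 30.5 ± 7.71 and Mrpl18 27.4 ± 5.67 (SD, n = 3 each), so that the levels of Mrpl12 and Mrpl18 differed by less than the spread between mice. At the other end were Mrps10 at 1.66, Mrpl19 and, lowest of all, Mrps35 at 1.20, a range of 32.4-fold with a median of 6.55. These low values belong to long gene models of 5450 to 8631 bases that join every annotated exon, and the value per kb is lower where much of that length is not part of the main transcript. The small-subunit genes took 31.6%, 32.8% and 32.5% of the summed level per kb in WT and 32.2%, 31.1% and 31.6% in KO. The balance between the subunits therefore varied by less than 2 percentage points over the 6 mice, and the ranges of the genotypes overlapped.

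**Figure D1:**
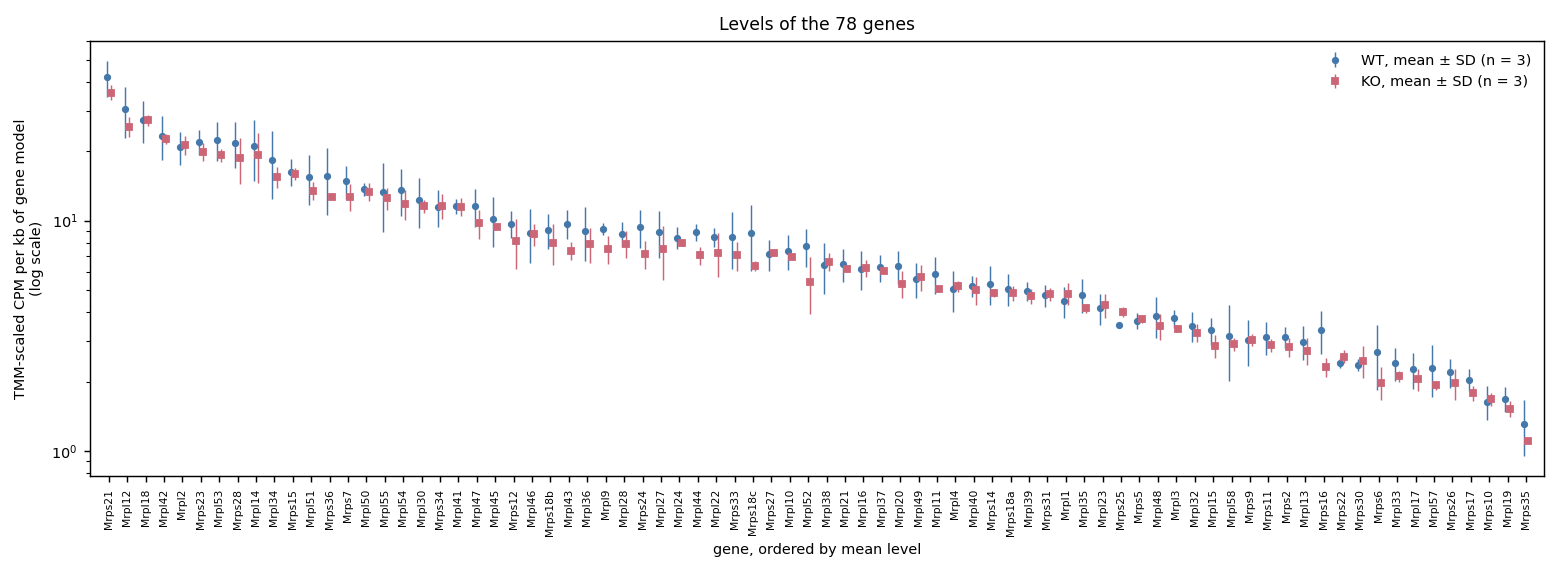
Mean level of each of the 78 genes in WT (circles) and KO (squares), in TMM-scaled CPM per kb of gene model on a log axis, with SD over 3 libraries; genes run from the highest to the lowest level. The order spans 32.4-fold from Mrps21 to Mrps35, and for most genes the WT and KO bars overlap.

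Between the genotypes, small reductions in KO outnumbered increases, and few genes passed a test. Of the 78 genes, 62 had a lower and 16 a higher mean in KO, while 50.6% of all 15623 genes tested had a lower mean. The median log2 fold change was -0.14, against -0.0042 over all genes tested and -0.0030 over the 12349 tested protein-coding genes. The quartiles were -0.22 and -0.031, and the extremes were -0.53 for Mrps16 and 0.18 for Mrps25. No gene had an adjusted p under 0.05 with edgeR's quasi-likelihood test (smallest adjusted p = 0.347) or with DESeq2 (smallest adjusted p = 0.357). With edgeR, 7 of the 78 genes (8.97%) had an unadjusted p under 0.05, near the background of 9.89% of all tested genes. All 7 were lower in KO, where the background was 5.16%, and 0 were higher, where it was 4.73%. DESeq2 gave 4 genes, with a background of 8.26%. The KO libraries lay wholly below the WT libraries for 6 of the 78 genes (7.69%), against a background of 7.87%, and wholly above for 1, Mrps25, against 7.53%. Of the genes with such a p, 1 also had the fold change that the study asks for (over 1.5 or under 0.7). This was Mrps16, or 1.28% of the 78, against a background of 5.35%, made up of 3.14% lower and 2.21% higher in KO.

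The data limit how large a change could have been missed. The SE of the log2 fold change ran from 0.12 to 0.25, and the 95% intervals of all 78 genes excluded both a 2-fold fall and a 2-fold rise. All 78 intervals also excluded a 1.5-fold rise, and 46 of them excluded a fall to 0.7 of the WT level.

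**Figure D2:**
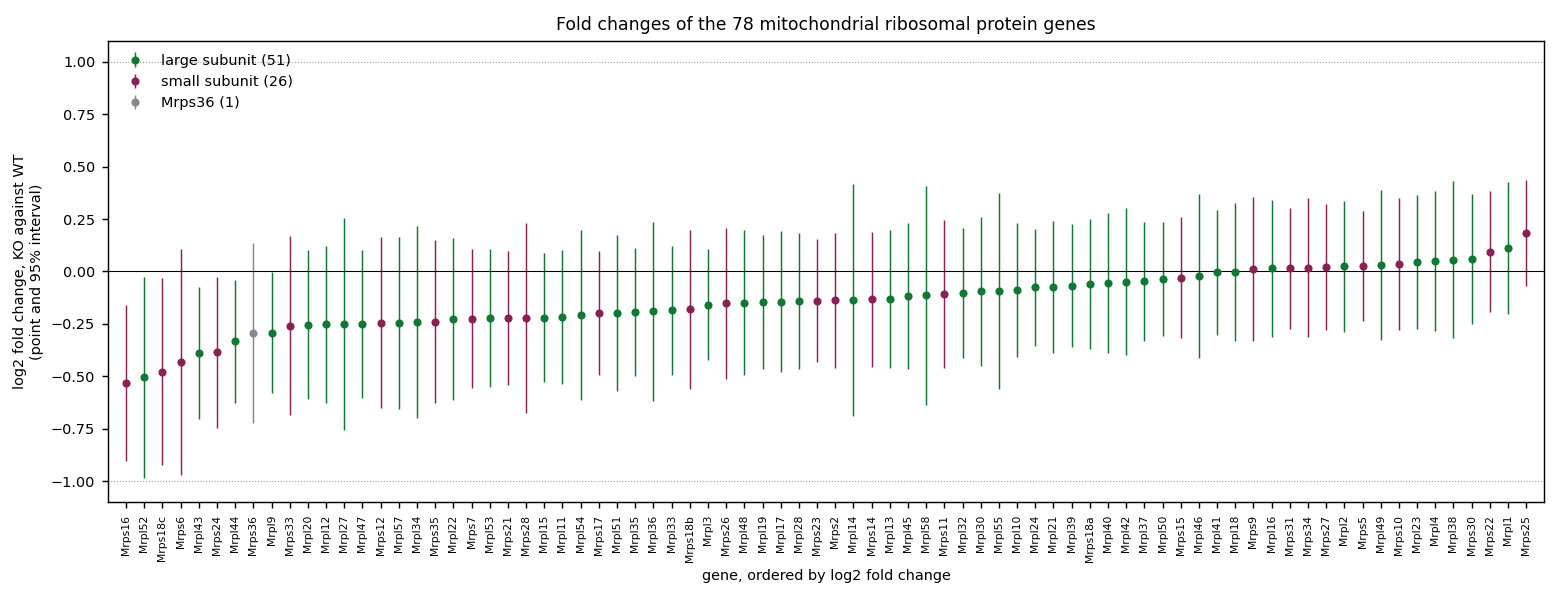
Log2 fold change of each of the 78 genes in KO against WT (point) with its 95% interval from edgeR's fit (line), ordered from lowest to highest and colored by subunit. The points run from -0.53 for Mrps16 to 0.18 for Mrps25, and no interval reaches the dotted lines of a 2-fold change.

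The direction of the median depended on 1 library. Relative to the WT mean of each gene, the median log2 deviation of the 78 genes was 0.26, -0.072 and -0.19 in WT and -0.082, -0.24 and -0.027 in KO. WT replicate 3 thus lay below KO replicates 1 and 3, and WT replicate 1 was the library that stood apart. It held the highest value of the 6 libraries for 70 of the 78 genes, as it did for 20.7% of all tested genes. WT replicate 1 was above all KO libraries for 71 genes, WT replicate 2 for 25 and WT replicate 3 for 11, while WT replicate 3 was below all KO libraries for 32. Between mice of the same genotype, the median ratio of WT replicate 1 to WT replicate 3 was 1.38, compared with 1.10 for the ratio of the WT mean to the KO mean. Those replicates had the highest and lowest WT medians. Means of 3 libraries also vary less than single libraries, so these ratios are unlike measures. Without WT replicate 1, 36 of the 78 genes were lower in KO, the median log2 fold change was 0.012 and 1 gene, Mrps16, had an unadjusted p under 0.05 (background 8.76%). The lowest value fell in KO replicate 2 for 36 genes and in WT replicate 3 for 29; without KO replicate 2 the median was -0.068, with 58 genes lower and 1, Mrps16, with an unadjusted p under 0.05 (background 7.3%).

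WT replicate 1 also had the highest share of mitochondrial transcripts among the WT libraries. By their sums, the endothelial and adipocyte markers had the same order among the WT libraries as the ribosomal protein genes. The slow fiber, leukocyte and Schwann cell sums were highest in WT replicate 3. Of the endothelial markers, Cdh5 and Tie1 kept that order, while Pecam1 was highest and Kdr lowest in WT replicate 2. The 4 endothelial markers summed to a CPM of 86.2, 63.9 and 49.2 in WT and 77.1 to 90.1 in KO. The 7 slow fiber markers summed to 58.3, 33.5 and 87.7 in WT, the 8 leukocyte markers to 25.4, 16.8 and 59.1 in WT and 15.0 to 24.6 in KO, and the 4 Schwann cell markers to 6.10 to 11.9 in WT and 8.64 to 14.1 in KO. Lyz2 alone gave 14.9, 6.35 and 37.2 of the leukocyte sums in WT. Of the 7 leukocyte markers tested, 5 had a lower and 2 a higher mean in KO. Cd3e was among the higher, at 0.81, 1.34 and 1.15 in WT and 1.37, 2.94 and 3.14 in KO. The 5 adipocyte markers summed to 121, 120 and 61.5 in WT and 85.9 to 109 in KO. Nearly all of it came from Fabp4, which endothelial cells also express. Adipoq, Cidec and Plin1 had 1 to 6 counts in the WT libraries and 0 to 14 in KO, and Lep had 0 in WT and 0, 1 and 1 in KO. The part of these cells, or of the mitochondrial share, in the level of WT replicate 1 was not tested.

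**Figure D3:**
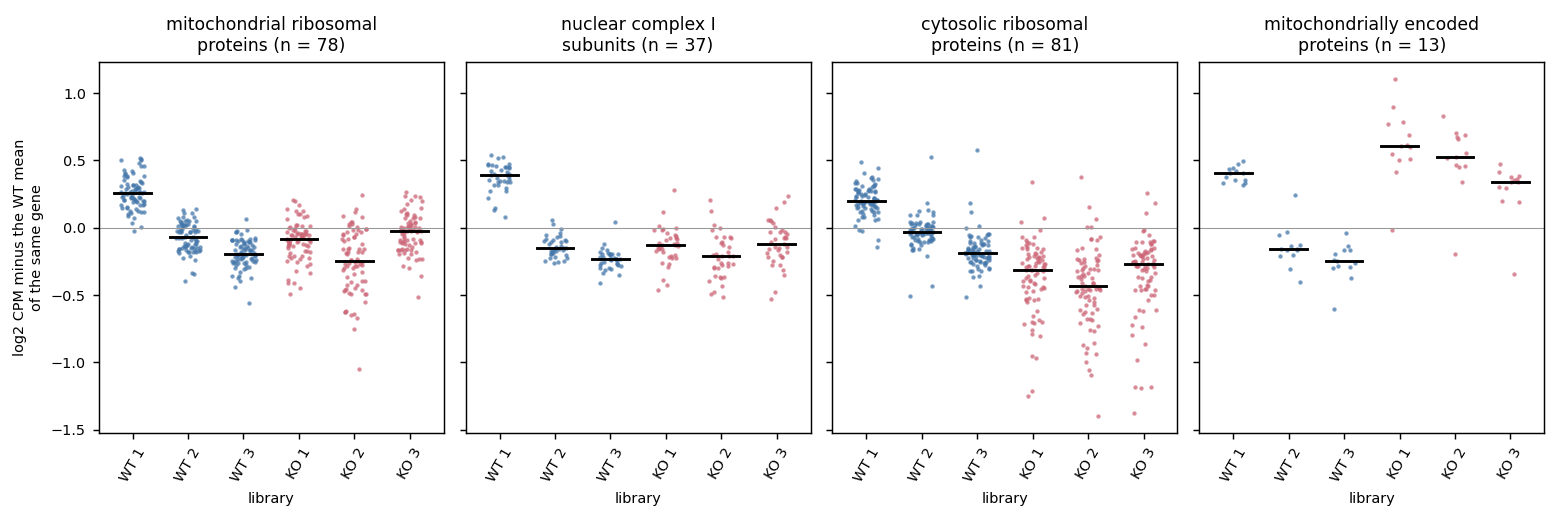
Log2 CPM of each tested gene in each library minus the WT mean of that gene, for 4 gene groups; points are genes, black lines are medians, and WT and KO libraries are colored apart. The mitochondrial ribosomal and nuclear complex I genes are highest in WT replicate 1 with the other 5 libraries close together, whereas all KO medians of the cytosolic ribosomal proteins lie below the WT medians.

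Other gene groups help to place this pattern. The 37 nuclear genes with Nduf symbols, which name complex I subunits of the respiratory chain, had a median log2 fold change of -0.19. It became 0.022 without WT replicate 1. Their median deviations were 0.39, -0.15 and -0.23 in WT and -0.13, -0.21 and -0.12 in KO. By its symbol Ndufa4 is among them, though its product is now placed in complex IV of that chain. The 81 tested cytosolic ribosomal protein genes had a median log2 fold change of -0.33, and -0.25 without WT replicate 1. With edgeR, 44 had an unadjusted p under 0.05, all lower in KO (background 5.16%), and 0 had an adjusted p under 0.05. Their median deviations were -0.31, -0.43 and -0.27 in the KO libraries against 0.20, -0.028 and -0.19 in WT. This group was set by symbol and takes in paralogs such as Rpl3l, Rpl7l1 and Rpl22l1. The groups were compared by these values alone, and the difference between them was not tested.

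The gene with the lowest p was Mrps16, the counterpart of a conserved bacterial small-subunit protein, whose human version was among the first mitochondrial ribosomal proteins linked to respiratory chain deficiency. Its TMM-scaled CPM was 11.9, 8.19 and 8.73 in WT and 7.25, 6.03 and 6.62 in KO. All KO libraries were below all WT libraries, with WT replicate 1 well above the rest. The log2 fold change was -0.53 (SE 0.17, unadjusted p = 0.00894, adjusted p = 0.347, edgeR's quasi-likelihood test), and an unadjusted p under 0.05 was kept in all 6 fits that left out 1 library each, though the log2 fold change came to -0.35 without WT replicate 1. With WT replicate 1 and KO replicate 2 both left out it was -0.29 (unadjusted p = 0.116, edgeR). The gene lies on chromosome 14 from 20439372 to 20443702 on the minus strand in GRCm39, with no exon shared with another gene.

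Mrpl43, a mitochondria-specific large-subunit protein, had a CPM of 16.8, 14.8 and 12.7 in WT and 10.7, 10.6 and 12.4 in KO. The groups did not overlap, but WT replicate 3 and KO replicate 3 were nearly level (log2 fold change -0.39, SE 0.14, unadjusted p = 0.0191, adjusted p = 0.421 from edgeR). Its locus on chromosome 19 from 44993268 to 44994881 shares 33.4% of its exon bases with Twnk, the mitochondrial DNA helicase gene on the opposite strand, and the sources used here do not say whether strand was used in counting, so reads of the pair may not be told apart. Mrpl44, a protein near the peptide exit tunnel that is mutated in a human cardiomyopathy, had a CPM of 15.8, 14.7 and 13.4 in WT and 12.0, 10.4 and 12.5 in KO, again without overlap (log2 fold change -0.33, SE 0.13, unadjusted p = 0.0281 from edgeR). Mrpl52, a mitochondria-specific protein of the large subunit, had a CPM of 10.3, 8.34 and 7.08 in WT and 7.01, 4.08 and 6.96 in KO. The groups were separated by less than the spread within either, and KO replicate 2 was far below the others (log2 fold change -0.51, SE 0.22, unadjusted p = 0.0409 from edgeR).

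Mrpl9, a large-subunit protein with a bacterial counterpart, had a CPM of 26.7, 23.7 and 24.4 in WT and 18.7, 18.8 and 23.5 in KO, with KO replicate 3 close to the WT libraries (log2 fold change -0.29, SE 0.13, unadjusted p = 0.0474 from edgeR). Mrps18c, the paralog that takes the place of the bacterial protein in the small subunit, had a CPM of 12.9, 7.04 and 8.70 in WT and 6.57, 6.69 and 7.22 in KO, so that WT replicate 2 lay within the KO range (log2 fold change -0.48, SE 0.20, unadjusted p = 0.0375 from edgeR); it shares 23.2% of its exon bases with the gene model Gm43511. Mrps24, which lines the entry of the mRNA channel, had a CPM of 16.5, 13.3 and 11.4 in WT and 11.6, 8.85 and 11.0 in KO, with WT replicate 3 below KO replicate 1 (log2 fold change -0.39, SE 0.17, unadjusted p = 0.0383 from edgeR). It shares 15.4% of its exon bases with Urgcp on the same strand. Of the 7 genes, the 6 other than Mrps16 had an adjusted p of 0.421 to 0.499 with edgeR's quasi-likelihood test and kept an unadjusted p under 0.05 in 1 to 3 of the 6 fits that each left out 1 library.

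**Figure D4:**
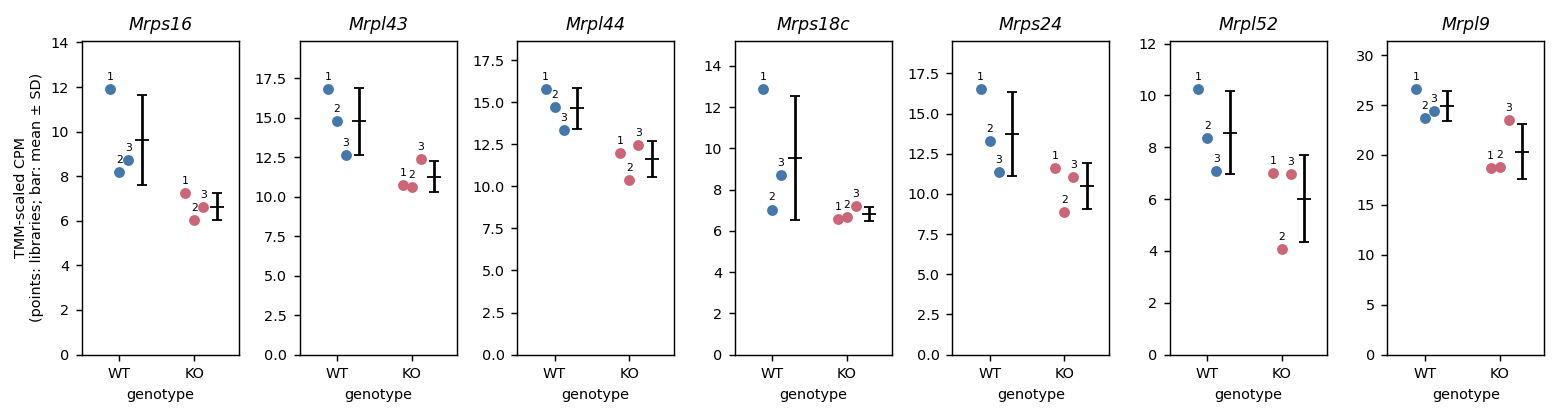
TMM-scaled CPM of the 7 genes with an unadjusted p under 0.05, by genotype; numbered points are replicates and black bars are the mean ± SD over 3 libraries. WT replicate 1 is the highest point in every panel, and in the panels of Mrps18c and Mrps24 the groups overlap.

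Promoter sequences were examined for the motifs of factors known to drive nuclear genes for mitochondrial proteins: NRF1, a nuclear respiratory factor (the letters GCGCA, any base, then GCGC), the ETS family that includes GABP (CCGGAAG) and YY1 (ATGGCGG). RefSeq windows of 300 bases (250 before and 50 after each start, GRCm38.p6) were at hand for 69 of the 78 genes, and both strands were searched; the motifs did not overlap each other in any window. The ETS letters were found for 26 of the 69 genes (37.7%), against 9.93% of the 27025 genes with a window, those of NRF1 for 13 (18.8%) against 5.19%, and those of YY1 also for 13 (18.8%), against 4.69%. At least 1 of the 3 was present for 42 of the 69, or 60.9%, against 17.3%. The background counts every gene with a window, expressed in this muscle or not, whereas the 69 were all expressed protein-coding genes. The windows below belong to genes with an unadjusted p under 0.05 and to Mrpl12, one of the most abundant, and show the ETS or NRF1 letters in their place; capitals mark the match, and YY1 matches are not shown.
Mrps16, ETS, chr14:20393513-20393609, minus strand: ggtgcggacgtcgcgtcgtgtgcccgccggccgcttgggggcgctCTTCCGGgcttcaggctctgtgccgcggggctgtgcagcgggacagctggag
Mrpl43, ETS, chr19:45006447-45006543, minus strand: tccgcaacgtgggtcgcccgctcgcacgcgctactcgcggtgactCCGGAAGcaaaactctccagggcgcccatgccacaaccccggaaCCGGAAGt
Mrpl52, ETS, chr14:54426817-54426913, plus strand: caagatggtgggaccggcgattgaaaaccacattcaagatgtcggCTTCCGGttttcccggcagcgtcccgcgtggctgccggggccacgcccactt
Mrpl44, NRF1, chr1:79775938-79776037, plus strand: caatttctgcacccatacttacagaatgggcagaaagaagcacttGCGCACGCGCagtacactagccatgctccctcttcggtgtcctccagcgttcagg
Mrpl9, NRF1, chr3:94443263-94443355, plus strand: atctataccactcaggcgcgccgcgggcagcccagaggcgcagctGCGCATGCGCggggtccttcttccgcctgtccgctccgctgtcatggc
Mrpl12, NRF1, chr11:120484511-120484610, plus strand: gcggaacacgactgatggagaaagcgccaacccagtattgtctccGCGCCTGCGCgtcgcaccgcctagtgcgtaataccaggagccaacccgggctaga
Each sequence is written 5′ to 3′ along the gene, and the first match starts 74, 56, 47, 35, 28 and 81 bases before the annotated start, in the order given. Mrpl43 holds the ETS letters at both printed places. The median log2 fold change was -0.19 for the 26 genes with the ETS letters, -0.14 for the 13 with those of NRF1, -0.11 for the 13 with those of YY1 and -0.076 for the 27 with none of the 3. Of these genes 24, 12, 10 and 19 had a lower mean in KO, as did 50.6% of all tested genes. The values come from the fit to all 6 libraries and were not computed without WT replicate 1. These are descriptions, and a match is not a bound site.

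By subunit, the medians lay close to that of the whole set, and by ancestry they differed more, a difference that was not tested. In the large subunit 43 of 51 genes had a lower mean in KO (median log2 fold change -0.13), and in the small subunit 18 of 26 (median -0.15). Without WT replicate 1 these medians were 0.018 and -0.027. Of all tested genes, 50.6% had a lower mean in KO. An unadjusted p under 0.05 was found with edgeR for 4 large-subunit and 3 small-subunit genes, all lower in KO. The background was 9.89% of all tested genes, and 5.16% for lower. Genes with a bacterial counterpart had a median of -0.14 and mitochondria-specific ones of -0.080, and without WT replicate 1 these were -0.039 and 0.038. The stalk genes Mrpl10, Mrpl11 and Mrpl12 had log2 fold changes of -0.087, -0.22 and -0.25. Mrpl12, whose product is also known to bind the mitochondrial RNA polymerase, had a CPM of 60.3, 39.3 and 40.5 in WT and 42.0, 34.9 and 40.8 in KO, so that WT replicates 2 and 3 lay inside the KO range (SE 0.17, unadjusted p = 0.170 from edgeR). Mrpl1, of the other stalk, had a log2 fold change of 0.11. The 4 genes of the platform that holds the mRNA, Mrps18c and Mrps6 among them, all had lower means in KO, with a median of -0.33 that was -0.13 without WT replicate 1.

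In the peptidyl transferase core, Mrpl2, Mrpl3, Mrpl16 and Mrpl27 had log2 fold changes of 0.026, -0.16, 0.015 and -0.25, none with an unadjusted p under 0.05. Mrpl3 had a CPM of 27.7, 24.1 and 23.5 in WT and 22.8, 22.4 and 22.3 in KO, a small but complete separation (SE 0.12, unadjusted p = 0.217 from edgeR). Mrpl45, which anchors the ribosome to the inner membrane, had -0.12, and Mrpl58, a peptidyl-tRNA hydrolase that rescues stalled ribosomes, had -0.11. In the small subunit, Mrps12 of the decoding center had a log2 fold change of -0.24, and Mrps5, a protein of the mRNA entry whose natural variation has been linked to mouse lifespan, had 0.026 with a 95% interval of -0.24 to 0.29. The CPM of Mrps5 was 26.3, 23.7 and 22.6 in WT and 24.0, 25.7 and 24.1 in KO, which overlapped fully. Mrps6, a platform protein and the gene with the fewest counts, had -0.43 (SE 0.25, unadjusted p = 0.108 from edgeR), with WT replicate 3 inside the KO range. It shares 19.9% of its exon bases with Slc5a3 and Gm49711 on the same strand.

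The 3 Mrps18 genes are paralogs whose products sit at different places. Mrps18a in the large subunit had a log2 fold change of -0.060, Mrps18b in the small subunit -0.18 and Mrps18c -0.48, and only the last had an unadjusted p under 0.05; differences among them were not tested. Mrps30, which like Mrps18a is part of the large subunit, had 0.060, and Mrpl38 of the central protuberance had 0.055. Mrps22, a small-subunit protein mutated in human respiratory chain deficiency, had 0.093. Mrps25, a mitochondria-specific small-subunit protein, had a CPM of 22.8, 24.0 and 22.7 in WT and 24.8, 27.4 and 26.7 in KO, all KO libraries above all WT libraries (log2 fold change 0.18, SE 0.12, unadjusted p = 0.143 from edgeR). It shares 69.8% of its exon bases with Nr2c2 on the opposite strand. Mrps36 had a log2 fold change of -0.29 and a CPM of 27.3, 16.3 and 16.0 in WT and 15.6 to 16.5 in KO, and WT replicates 2 and 3 lay inside the KO range.

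The gene models of the set are short, with a median of 2394 bases against 3748 over all tested genes. The 39 shorter genes had a median log2 fold change of -0.19 and 5 of the 7 low p values, and the 39 longer ones had -0.12. Across the 78 genes, which are not independent replicates and share the same libraries, Spearman's rho between length and log2 fold change was 0.33. With an offset for gene length in the fit, the median log2 fold change came to -0.057 and 52 genes were lower. Only Mrps16 then had an unadjusted p under 0.05 in edgeR (log2 fold change -0.51, background 9.04%). The same offset gave medians of -0.25 for the cytosolic ribosomal protein genes and -0.078 for the nuclear complex I genes.

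Few of the other nuclear genes of mitochondrial translation passed a test. Of 80 tested genes in 6 lists, 49 had a lower and 31 a higher mean in KO, with a median log2 fold change of -0.031, and 2 had an unadjusted p under 0.05, both lower, where the background over all tested genes was 9.89%, and 5.16% for lower. The median was 0.017 without WT replicate 1. The first was Ngrn, needed for assembly of the large subunit around its rRNA, with a CPM of 9.09, 9.56 and 8.60 in WT and 4.75, 6.81 and 7.33 in KO. Its groups did not overlap, and KO replicate 1 was the lowest (log2 fold change -0.53, SE 0.17, unadjusted p = 0.00990, adjusted p = 0.354 from edgeR). The second was Chchd1, 1 of 5 mitochondrial ribosomal proteins that carry other symbols, with a CPM of 35.5, 27.3 and 23.5 in WT and 22.1, 21.2 and 24.8 in KO, which overlapped (log2 fold change -0.34, unadjusted p = 0.0493 from edgeR). Of the other 4, Dap3 had -0.0064, Gadd45gip1 0.011, Ptcd3 -0.034 and Aurkaip1 -0.12.

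None of the 13 translation factors, 20 genes of aminoacyl-tRNA synthesis, 7 of mitochondrial transcription and RNA stability or 8 regulators of mitochondrial biogenesis had an unadjusted p under 0.05 with edgeR, and their medians were -0.025, -0.064, -0.038 and -0.0019. In the 27 assembly and rRNA modification genes the median was -0.013.

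The RNA partners of these proteins are transcribed in the mitochondrion, and they had higher means in KO. The rRNA of the large subunit, mt-Rnr2, had a CPM of 4890, 3538 and 2637 in WT and 5544, 5468 and 4859 in KO (log2 fold change 0.52, SE 0.22, unadjusted p = 0.0329, adjusted p = 0.471 from edgeR), with WT replicate 1 inside the KO range. The rRNA of the small subunit, mt-Rnr1, had 2196, 1521 and 1524 in WT and 2140, 1756 and 2073 in KO (log2 fold change 0.19, unadjusted p = 0.334 from edgeR). Of the 13 protein genes that this ribosome translates, 12 had a higher mean in KO, with a median log2 fold change of 0.46. An unadjusted p under 0.05 was found with edgeR for 6, all higher, a call made for 4.73% of all tested genes. They were mt-Nd1, mt-Nd4, mt-Nd4l, mt-Nd5, mt-Nd6 and mt-Atp8, with an adjusted p of 0.316 to 0.503 (edgeR's quasi-likelihood test). For mt-Nd1, mt-Nd4 and mt-Nd6 the groups overlapped, with WT replicate 1 inside the KO range. By their medians, both the mitochondrial transcripts and the nuclear ribosomal protein genes were higher in WT replicate 1 than in the other WT libraries. In the KO libraries the median of the first was above the WT mean and that of the second below it. Single genes went the other way in all KO libraries, among them mt-Nd3 and Mrps25.

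**Figure D5:**
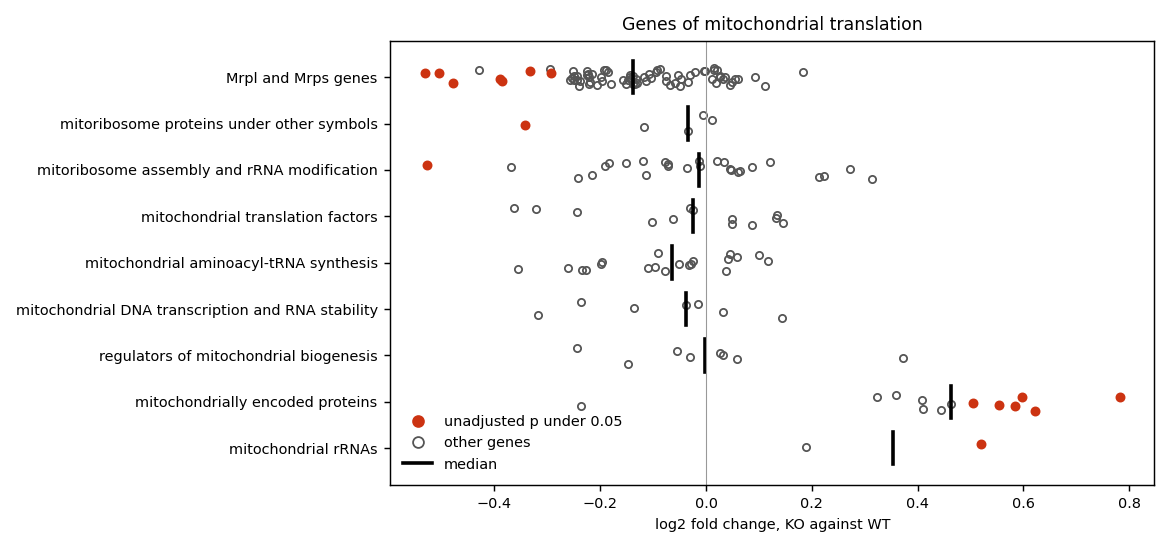
Log2 fold change in KO against WT of each gene in the Mrpl and Mrps set and in 8 lists of mitochondrial translation; filled points have an unadjusted p under 0.05 in edgeR's fit, open points do not, and vertical lines are medians. The medians of the nuclear groups lie between -0.14 and -0.0019, and those of the mitochondrially encoded proteins and rRNAs at 0.46 and 0.35.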

How the data were processed

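RNA-seq of TA muscle from 3 WT and 3 KO mice was used. According to the methods, the authors aligned 150-base paired-end reads with HISAT2 (version 2.1.0) and counted them per gene with featureCounts (version 1.6); the deposited table holds raw counts for 55416 genes and a length for each, and replicates were not pooled. The methods name GRCm38 and the submitters' processing notes GRCm39. Of 52135 genes matched by Ensembl identifier to GENCODE M21 (GRCm38), 1546 have its start and end, so positions of genes are given as deposited, in GRCm39, and promoter windows from RefSeq in GRCm38.p6. Strand and multi-mapping settings are not given in the sources used here: values of overlapping genes, pseudogenes and paralogs are uncertain. Exons of 32 members overlap another gene, 10 of them over more than 20% of their bases.

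Symbols and biotypes came from GENCODE M21. The WT column without a number was taken as replicate 1, because the other WT columns are named 2 and 3. Genes were kept with filterByExpr, scaled by TMM and compared by edgeR's quasi-likelihood test (edgeR 4.0.16, R 4.3.3, robust estimation), with Benjamini-Hochberg adjustment over 15623 genes; the steps were tested on simulated data. CPM values are TMM-scaled, and log2 CPM used a prior count of 1. DESeq2 was version 1.42.0. Genes were named by a rule: an unadjusted p under 0.05, the extremes of fold change and level, and set roles; Mrpl48 and the pseudogenes are outside it and were chosen after their values were seen. The members, lists and tests were chosen with earlier results of these data known. The motifs, the split by length, and the nuclear complex I and cytosolic ribosomal groups were added after the data were seen, and the YY1 letters were shortened to their core after a first search. The labels do not say that replicates are separate animals beyond their titles; p-values then measure the spread between these samples. Within a genotype the chi-square between 2 libraries, divided by its degrees of freedom, was 21.0 to 79.2, above sampling noise. Alternatives were DESeq2, DESeq2 normalization within edgeR, keeping all genes, a minimum of 10 counts per library, robust estimation off, the replicate block, an offset for gene length, leaving out mitochondrially encoded genes, and leaving out each library.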

Additional observations from a re-analysis of the deposited data

How the results depend on the processing

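With DESeq2, 4 of the 78 genes had an unadjusted p under 0.05 in place of 7, against 8.26% of all tested genes. So did 1 of the 80 nuclear genes of the other lists in place of 2. Without a filter on low counts, 2 of the 78 passed the thresholds of the study in place of 1, against 5.6% of all genes tested there. In that fit 4 of the 80 other genes had an unadjusted p under 0.05 with edgeR, against 8.7% of all. This count was 1 with robust estimation off (10.2% of all) and 1 with mitochondrially encoded genes left out (9.9% of all). Leaving those genes out also raised the median level from 6.55 to 10.1 CPM per kb, because fewer counts remained in each library. The offset for gene length left 1 of the 78 and 1 of the 80 with an unadjusted p under 0.05 in edgeR, against 9.04% of all tested genes. It left 0 of the 78 past the thresholds of the study, against 5.22%. Leaving out each library in turn gave 1 to 12 genes with an unadjusted p under 0.05, 0 to 4 past the thresholds, 36 to 73 lower in KO, and 1 to 5 of the 80 other genes; the median log2 fold change ran from -0.22 (without WT replicate 3, which gave 12 genes) to 0.012 (without WT replicate 1). The first count was 1 without WT replicate 1 or KO replicate 2, 3 without WT replicate 2, 4 without KO replicate 1 and 5 without KO replicate 3, all lower in KO; over all tested genes the share was 7.3% to 10.7%, and without WT replicate 3, where the 12 genes are 15.4% of the 78, it was 10.1%. The second was 0 without WT replicate 1 or KO replicate 2, and 2 without WT replicate 2, KO replicate 1 or KO replicate 3. It was 4 without WT replicate 3 (5.13%, against 5.91% of all tested genes). Over these fits, 5.05% to 6.66% of all tested genes passed the thresholds. Without WT replicate 1 and KO replicate 2, chosen after seeing the data, 1, Mrpl1, had an unadjusted p under 0.05 and was higher in KO (7.67% of all tested genes had such a p, in either direction), 0 passed the thresholds, 26 were lower in KO and the median was 0.049. Without the 10 members that share over 20% of their exon bases, also chosen after seeing the data, the median was -0.14. Of the remaining 68, 5 had an unadjusted p under 0.05 with edgeR, against 9.89% of all tested genes. Whether the same replicate numbers pair the mice was not settled by the correlations of their deviations, which were 0.060, 0.044 and -0.074. Between different replicate numbers they ran from -0.14 to 0.093, so the check cannot tell a pairing. With the replicate block, 6 genes had an unadjusted p under 0.05 with edgeR (7.69%, against 10.1% of all tested genes). The thresholds were passed by 2 (2.56%, against 5.7%), and the median was -0.14. No alternative gave any of the 78 an adjusted p under 0.05. The causes of these changes were not tested.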

Other observations

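The pseudogenes named after these genes also had counts. Mrpl48-ps had 40, 37 and 34 counts in WT and 19, 17 and 31 in KO, beside 957, 902 and 841 and 713, 603 and 855 for Mrpl48 itself. Mrpl23-ps1 had 40, 34 and 35 in WT and 28, 42 and 33 in KO. Of 3 pseudogenes of Mrps36, Mrps36-ps1 had 31, 17 and 20 counts in WT and 10, 16 and 10 in KO, Mrps36-ps2 had 26, 17 and 25 in WT and 10, 17 and 3 in KO, and Mrps36-ps3 had 0 in all 6 libraries. Mrps36 itself had 383 to 674 counts.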
